A study of Caenorhabditis elegans with 24 samples.

Results

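The genes described here encode the enzymes that remove superoxide and hydrogen peroxide in Caenorhabditis elegans: the superoxide dismutases sod-1 to sod-5, the catalases ctl-1 to ctl-3 and the peroxiredoxins prdx-2 and prdx-3. They were chosen by name, as 10 of the 20392 genes in the count table, to ask whether messenger RNAs of antioxidant enzymes rose beside the detoxification genes that were higher in the intestine after loss of RNA polymerase I (Pol I). None of the 10 was called higher in Pol I-depleted intestines at any time. Of the 6 with enough counts to be tested, ctl-2 and prdx-2 were lower after 24 h, by less than the 2-fold that a call required.

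Intestines were dissected from adults of 2 genotypes before and during exposure to 1 mM auxin. The TIR1 strains (DCW143 and DCW448) carry ieSi57, in which the eft-3 promoter drives the plant F-box protein TIR1 fused to mRuby in all tissues, and their labels also list unc-119(ed3). The Pol I-AID strains (DCW180 and DCW447) carry the same ieSi57 with qzIs15, a degron and GFP fused to rpoa-2 under the rpoa-2 promoter, so that auxin triggers degradation of this Pol I subunit in every tissue and not in the intestine alone. Each genotype, called a strain below, was sampled at 0 h without auxin, and at 12 and 24 h on auxin, in 4 libraries per group (6 groups, 24 libraries) that the labels call independent biological replicates, with several intestines pooled in each library. DCW143 and DCW180, outcrossed 1 time, gave replicate 1 of each group, and DCW448 and DCW447, outcrossed 3 times, gave the others. Fed adults were at day 1 of adulthood when auxin began, so hours on auxin are also hours of adult age, and these cannot be told apart within a strain.

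Superoxide, a by-product of mitochondrial respiration and of several oxidases, is converted by superoxide dismutases into hydrogen peroxide. Catalases, which act largely in peroxisomes, and peroxiredoxins, which are recharged by thioredoxin, then reduce hydrogen peroxide to water. In worms the transcription factors SKN-1 and DAF-16 raise different sets of these and of the conjugating enzymes, and the intestine is a main site of both responses.

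Total counts ran from 3.18 M to 29.5 M per library (median 20.8 M, with M for mega counts), and the 6 vitellogenin genes took 73.7% of them. Replicate 3 of TIR1 at 0 h (3.18 M) and replicate 1 of TIR1 at 24 h (4.68 M) were the shallowest. All 10 intestine markers were detected, and the other tissues were low, with summed markers of up to 338 ppm of the counts outside the vitellogenins for germline in 1 Pol I-AID library at 0 h. Body wall muscle (625 ppm) and hypodermis (697 ppm) were highest in TIR1 at 0 h, and 5 of 10 sperm, 4 of 10 hypodermis and 2 of 10 pharynx markers were at 0 in every library. Transcript of the tagged gene, rpoa-2, was at 0.394 ± 0.194 CPM (counts per M counts, TMM-scaled) in TIR1 at 24 h, against 1.06 ± 0.274 CPM with the degron tag (mean ± SD, n = 4). At 0 h, before auxin, it was at 0.404 ± 0.303 CPM in TIR1 (0 to 18 counts) and 0.853 ± 0.394 CPM in Pol I-AID (8 to 27 counts). The degron acts on the protein, so this transcript does not report depletion.

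Levels of the 10 genes spanned the range from abundant to undetected. Compared per kilobase (kb) of exon, ctl-2, the peroxisomal catalase, was the highest at 59.97 ± 12.5 CPM per kb over the 24 libraries. The cytosolic peroxiredoxin prdx-2 followed at 35.4 ± 11.6 CPM per kb, and the mitochondrial peroxiredoxin prdx-3 was at 14.3 ± 4.33 CPM per kb. sod-1, the main cytosolic copper/zinc superoxide dismutase, was at 9.30 ± 4.01 CPM per kb. The mitochondrial manganese enzyme sod-2 (2.39 ± 1.01 CPM per kb) and the cytosolic catalase ctl-1 (2.30 ± 0.867 CPM per kb) were similar. The order of neighbours held in 23 of 24 libraries for ctl-2 over prdx-2, in 24 for prdx-2 over prdx-3, in 21 for prdx-3 over sod-1 and in 24 for sod-1 over sod-2. It held in 11 of 24 for sod-2 over ctl-1, so these neighbours did not differ beyond their spread.

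**Figure D1:**
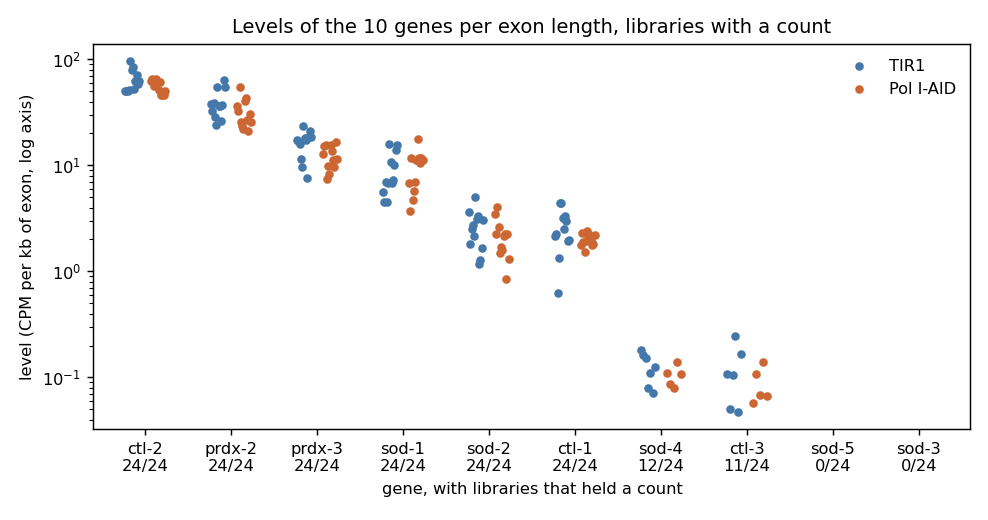
Level of each gene in CPM per kb of exon on a log axis, 1 point per library that held a count, with TIR1 in blue and Pol I-AID in orange. The number under each gene is the number of the 24 libraries with a count. ctl-2 is highest, and sod-3 and sod-5 have no points because they held no count in any library.

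Neither sod-3 nor sod-5 had a count. sod-3, a second mitochondrial manganese enzyme and a classic DAF-16 target, had 0 counts in all 24 libraries, and so had sod-5, a second cytosolic copper/zinc enzyme. A floor of 3 counts, which covers counting error only, allows levels of up to 0.0919 CPM in the deepest library and 0.764 CPM in the library with the highest floor, replicate 1 of TIR1 at 24 h. For sod-3 and sod-5 no fold change between strains was therefore computed, and no Pol I-AID library held a count. The authors counted reads in the orientation of the gene although the kit does not mark strand, and whether the counting bears on these values of 0 was not tested.

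sod-4, the extracellular copper/zinc enzyme, had 35 counts in all, spread over 12 libraries with 0 to 4 in each. At 24 h its counts were 0, 0, 2 and 0 in Pol I-AID and 0, 0, 0 and 3 in TIR1. ctl-3, the third catalase, had 44 counts over 11 libraries with 0 to 10 in each, the highest in replicate 3 of TIR1 at 12 h. Both genes failed the filter on low counts. Most low values in the table were even numbers, so 2 counts may come from the mates of 1 fragment.

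In the 6 tested genes the strains were compared at each time with edgeR's quasi-likelihood test, and a call needed an FDR (the Benjamini-Hochberg adjusted p) under 0.05 with at least a 2-fold change. No gene of the 6 was called at 0 h (0.174% of the 6903 tested genes were called), at 12 h (2.46%) or at 24 h (7.71%, with 4.35% called higher and 3.36% lower). At an unadjusted p under 0.05 there were 0 at 0 h, 3 at 12 h and 2 at 24 h, all lower in Pol I-AID, and DESeq2 also called 0 at each time. Nor was a gene of the 6 called for a change of the strain difference from 0 to 12 h (background 2.07%) or from 0 to 24 h (5.88%), where 3 and 2 had an unadjusted p under 0.05, all downward, and DESeq2 called 0. At 24 h the 6 log2 fold changes ran from -0.81 to -0.09 with a median of -0.39, against -0.0019 over all tested genes, although sod-1 turned above 0 with the length trend removed (0.20) and sod-1 (0.08) and sod-2 (0.24) did without TIR1 replicate 4.

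**Figure D2:**
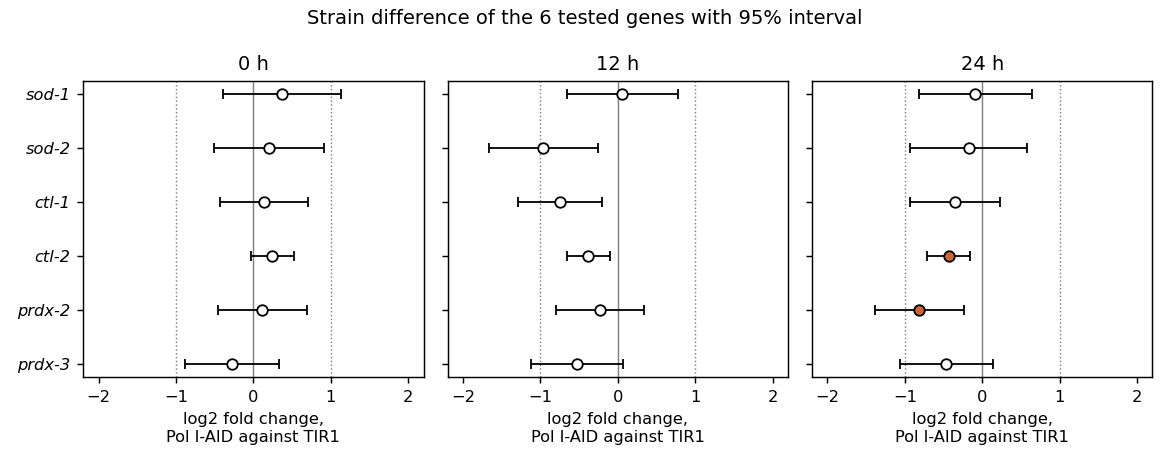
Log2 fold change of Pol I-AID against TIR1 for the 6 tested genes at 0, 12 and 24 h, with the approximate 95% interval as a bar. Filled points have an FDR under 0.05 and dotted lines mark 2-fold. At 24 h ctl-2 (-0.43) and prdx-2 (-0.81) are filled, and no bar at 24 h reaches 2-fold on the higher side. At 0 h the bar of sod-1 runs to 1.13.

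ctl-2 had the tightest levels of the group. In TIR1 at 24 h it was at 103, 115.5, 95.4 and 102 CPM in replicates 1 to 4, and in Pol I-AID at 75.8, 74.8, 75.2 and 82.5 CPM. The groups did not overlap, as in 17.8% of all tested genes at 24 h, and every Pol I-AID library lay below every TIR1 library. The log2 fold change was -0.43 (SE 0.13, FDR = 0.0294, edgeR), which is 0.741 of the TIR1 level. An FDR under 0.05 alone was reached by 13.8% of tested genes in this comparison, and among the 6 genes by ctl-2 and prdx-2.

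Before auxin the order of the strains was the opposite for ctl-2. TIR1 was at 82.7, 83.1, 83.2 and 84.4 CPM at 0 h, and Pol I-AID at 102, 108, 92.0 and 94.3 CPM. These groups did not overlap either (5.64% of all tested genes at 0 h), with Pol I-AID higher in 4 of 4 libraries, but the log2 fold change of 0.25 had an FDR of 0.616. Over the alternatives run, this difference at 0 h ran from 0.0127 to 0.31, with a lowest FDR of 0.421, so its size depended on the setting. The change of the strain difference from 0 to 24 h was -0.68 on the log2 scale (SE 0.19, FDR = 0.0246, edgeR), past FDR alone as in 7.66% of tested genes and short of 2-fold. That FDR passed 0.05 without TIR1 replicate 2 at 24 h (0.0539), without replicates 1, 2 or 3 of all groups (0.0829 to 0.225) and with no count filter (0.062). From 0 to 12 h the change was -0.63 (FDR = 0.0693).

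The ctl-2 difference at 24 h stayed below 0 in all alternatives run, from -0.50 to -0.36. Its FDR passed 0.05 when any 1 of 5 libraries was left out, reaching 0.0554 to 0.0965 (replicates 1, 2 and 3 of Pol I-AID and replicates 2 and 4 of TIR1), and it was 0.0847, 0.23 and 0.0861 without replicates 1, 2 and 3 of all groups and 0.109 with no count filter. The vitellogenin share of counts was also higher in Pol I-AID at 24 h, at 77.5% to 79.9% against 74.3% to 77.0%, and with library sizes taken without those genes the ctl-2 difference was -0.46 (FDR = 0.0233). Summed intestine markers were lower at 24 h, at 9365 to 11896 ppm in Pol I-AID against 14863 to 19377 ppm in TIR1, but 5 of the 10 markers lay below 0 and 5 above, with a median log2 fold change of -0.07. The most abundant of them outside the vitellogenins, the protease gene cpr-1, was the marker called, at 1647 ± 215 CPM against 3515 ± 508 CPM in TIR1 (log2 -1.09, FDR = 3.41e-05). In the other marker lists the genes called at 24 h were cup-4 of coelomocytes (1.08), cpg-1 of germline (-4.04) and myo-1 of pharynx (-4.73), each with group means of 4.22 CPM or less and with overlapping groups. The TIR1 level of myo-1 came mainly from replicate 3, at 13.04 CPM. The part of these markers in the result was not tested. In these dissected tissues, fewer cells of a type and less RNA per cell cannot be told apart.

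prdx-2 had the largest strain difference among the 6 genes at 24 h. It was at 22.9, 32.3, 55.5 and 47.6 CPM in the TIR1 libraries, and at 23.3, 18.7, 26.7 and 22.4 CPM in the Pol I-AID libraries. Replicate 1 of TIR1, 1 of the shallow libraries, lay within the Pol I-AID range, and the other 3 TIR1 libraries lay above all of it. The log2 fold change was -0.81 (SE 0.28, FDR = 0.0498, edgeR). Without TIR1 replicate 1 it was -0.99 (FDR = 0.018), and without replicate 1 of all groups it passed 2-fold at -1.01 (FDR = 0.0388). Without replicates 2, 3 and 4 of all groups it was -0.82 (FDR = 0.1185), -0.73 (FDR = 0.154) and -0.73 (FDR = 0.163). Without TIR1 replicate 3, the highest library, it was -0.64 (FDR = 0.171), and the FDR also passed 0.05 without TIR1 replicate 4 (0.138) and without any 1 of the 4 Pol I-AID libraries (0.0611 to 0.138), and with library totals in place of TMM (0.0659).

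At 0 and 12 h prdx-2 overlapped between strains, with log2 fold changes of 0.12 and -0.23. Its level in TIR1 was 30.1 ± 4.17, 33.1 ± 10.96 and 39.6 ± 14.7 CPM at 0, 12 and 24 h (n = 4), and in Pol I-AID 32.5 ± 10.9, 28.4 ± 9.83 and 22.8 ± 3.30 CPM. The change of the strain difference from 0 to 24 h was -0.93 (FDR = 0.151). prdx-3, which works in mitochondria, overlapped between the strains at each time. Its log2 fold changes were -0.28, -0.53 (FDR = 0.394) and -0.46 (FDR = 0.334), so the difference was within the replicate spread both before and after auxin.

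**Figure D3:**
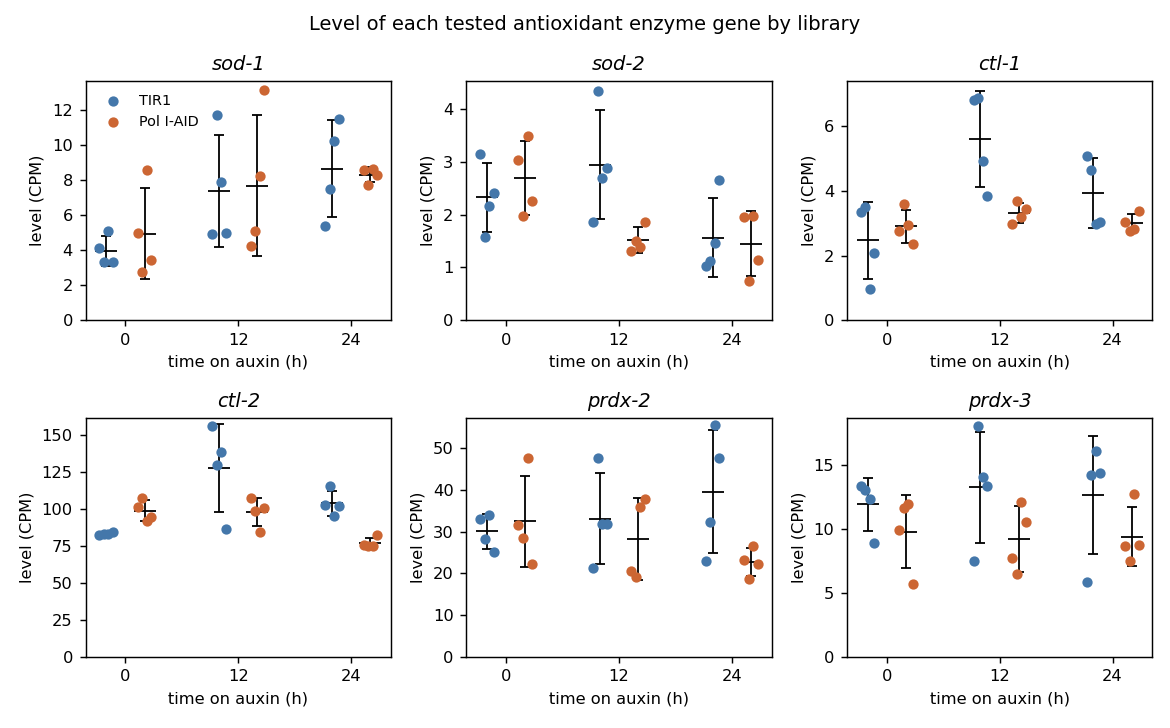
Level in CPM of the 6 tested genes by hours on auxin, 1 point per library with TIR1 in blue and Pol I-AID in orange, and the mean ± SD of 4 libraries in black. ctl-2 at 24 h is the panel in which the strains separate with Pol I-AID below TIR1, and sod-2 and ctl-1 separate in this direction at 12 h.

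The other catalase with counts and the mitochondrial dismutase were lowest relative to TIR1 at 12 h. sod-2 was at 1.87, 4.35, 2.69 and 2.87 CPM in TIR1 at 12 h and at 1.303, 1.49, 1.39 and 1.86 CPM in Pol I-AID. ctl-1 was at 6.81, 6.88, 4.93 and 3.85 CPM in TIR1 and at 2.98, 3.70, 3.20 and 3.43 CPM in Pol I-AID. Neither gene's groups overlapped, as in 10.6% of all tested genes at 12 h, although for sod-2 the highest Pol I-AID and lowest TIR1 values lay side by side. The log2 fold changes were -0.96 (SE 0.33, FDR = 0.101) for sod-2 and -0.75 (SE 0.26, FDR = 0.0979) for ctl-1, so neither passed the test. At 24 h the groups of both overlapped, with log2 fold changes of -0.18 for sod-2 and -0.35 for ctl-1.

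sod-1, the most abundant dismutase, did not separate the strains at any time. At 24 h it was at 5.35, 7.46, 10.2 and 11.5 CPM in TIR1 and at 8.59, 7.69, 8.65 and 8.30 CPM in Pol I-AID. The Pol I-AID values lay inside the TIR1 range, and the log2 fold change was -0.09 (FDR = 0.914, edgeR), with an approximate 95% interval from -0.82 to 0.64. The upper ends of the intervals of the other 5 tested genes at 24 h were 0.58 for sod-2, 0.22 for ctl-1, -0.15 for ctl-2, -0.23 for prdx-2 and 0.14 for prdx-3. A 2-fold rise thus lay outside the interval of every tested gene at 24 h.

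The time courses within each strain share their 0 h libraries and are given side by side. ctl-1 rose in TIR1 from 3.35, 3.50, 0.965 and 2.08 CPM at 0 h to 6.81, 6.88, 4.93 and 3.85 CPM at 12 h. Its log2 fold change of 1.08 (SE 0.27, FDR = 0.0164, edgeR) was the single call among the 6 in that interval, where 2.58% of all genes were called. The call was lost without TIR1 replicate 1 (0.98, FDR = 0.0686) or 2 (0.98, FDR = 0.0682) at 12 h, and without TIR1 replicate 3 (0.92) or 4 (0.97) at 0 h. The log2 fold change of ctl-2 was 0.62 (SE 0.13, FDR = 0.00595), past FDR alone as in 4.65% of tested genes.

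In Pol I-AID neither catalase passed the test from 0 to 12 h. ctl-1 was at 2.91 ± 0.514 CPM at 0 h and 3.33 ± 0.308 CPM at 12 h, and ctl-2 at 98.9 ± 7.16 and 98.0 ± 9.73 CPM. edgeR called 0 of the 6 genes there (8.13% of all genes were called), 1 had an unadjusted p under 0.05, and DESeq2 called 0. Without replicate 3 at 0 h, sod-1 was called (1.06, FDR = 0.0494). From 0 to 24 h, too, edgeR and DESeq2 called 0 of the 6 in Pol I-AID (17.4% of all genes), 3 had an unadjusted p under 0.05, and ctl-2 alone passed FDR, at -0.36 (FDR = 0.0432, with 27.8% of all genes past FDR alone). Single libraries changed that count: sod-1 was called without replicate 3 at 0 h (1.16, FDR = 0.0169), and sod-2 without replicate 2 at 0 h (-1.01, FDR = 0.0459) or replicate 1 (-1.06, FDR = 0.0457) or 3 (-1.08, FDR = 0.0405) at 24 h. The difference between the strains in these time courses is the change of the strain difference given above, which passed FDR for ctl-2 at 24 h and for no other gene of the 6.

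sod-1 rose with time in TIR1, from 4.11, 3.29, 5.07 and 3.32 CPM at 0 h to 5.35, 7.46, 10.2 and 11.5 CPM at 24 h. The log2 fold change was 1.204 (SE 0.37, FDR = 0.024, edgeR), the single call among the 6 where 9.71% of all genes were called. The call was lost without TIR1 replicate 2 (1.13, FDR = 0.0738) or 4 (1.13, FDR = 0.0828) at 0 h and without TIR1 replicate 3 (1.14, FDR = 0.0589) or 4 (1.04, FDR = 0.0886) at 24 h, and with library totals in place of TMM it was 0.82 (FDR = 0.139). In Pol I-AID the same change was 0.74 (FDR = 0.123), and the 2 changes did not differ past the test (-0.46 for the change of the strain difference).

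The sod-1 to sod-2 count ratio, of the cytosolic to the mitochondrial dismutase, needs no scaling between libraries. It was chosen after its values were seen and is given as a description, with no test. In TIR1 it was 1.303 to 2.33 at 0 h, 1.73 to 2.91 at 12 h and 4.33 to 7.04 at 24 h. In Pol I-AID it was 1.39 to 2.45 at 0 h, 3.23 to 7.04 at 12 h and 4.37 to 10.4 at 24 h. The 0 and 24 h values did not overlap in either strain, and the strains overlapped at 0 and 24 h but not at 12 h. Among the catalases, ctl-2 held 94.8% to 98.9% of the counts in every library.

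Summed over the 10 genes, the level was 134 ± 5.95, 190 ± 32.7 and 170 ± 18.6 CPM in TIR1 at 0, 12 and 24 h, and 152 ± 15.3, 148 ± 13.9 and 122.04 ± 7.15 CPM in Pol I-AID. Most of this sum is ctl-2 and prdx-2, and it is given with no test.

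The detoxification families gave calls in both directions at 24 h, more of them higher. Of 203 genes with gst, ugt, cyp, pgp and fmo symbols, 130 were tested. In Pol I-AID 23 were called higher than in TIR1 and 4 lower (20.8% called, against 7.71% of all genes). The median log2 fold change was 0.27, with 44 of the 130 below 0. The ugt family had 10 higher and 2 lower of 45 tested, cyp 6 and 1 of 51, pgp 4 and 0 of 10 and gst 3 and 1 of 21. Of 3 fmo genes 1 passed FDR alone, as did 13.8% of all tested genes. Without replicate 3 of all groups 17 were called in place of 27. The ABC transporter gene pgp-8 reached 352 ± 56.2 CPM in Pol I-AID, against 0.346 ± 0.378 CPM in TIR1 (log2 10.29), and the glutathione S-transferase gst-24 at 273 ± 86.9 and 1.46 ± 0.704 CPM (7.45). The cytochrome P450 gene cyp-14A5 was higher in Pol I-AID (3.25), while ugt-15 (-2.73), gst-19 (-1.78) and cyp-13A6 (-1.51) were lower. At 12 h 14 of the 130 were called higher and 2 lower (12.3%, against 2.46% of all genes).

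**Figure D4:**
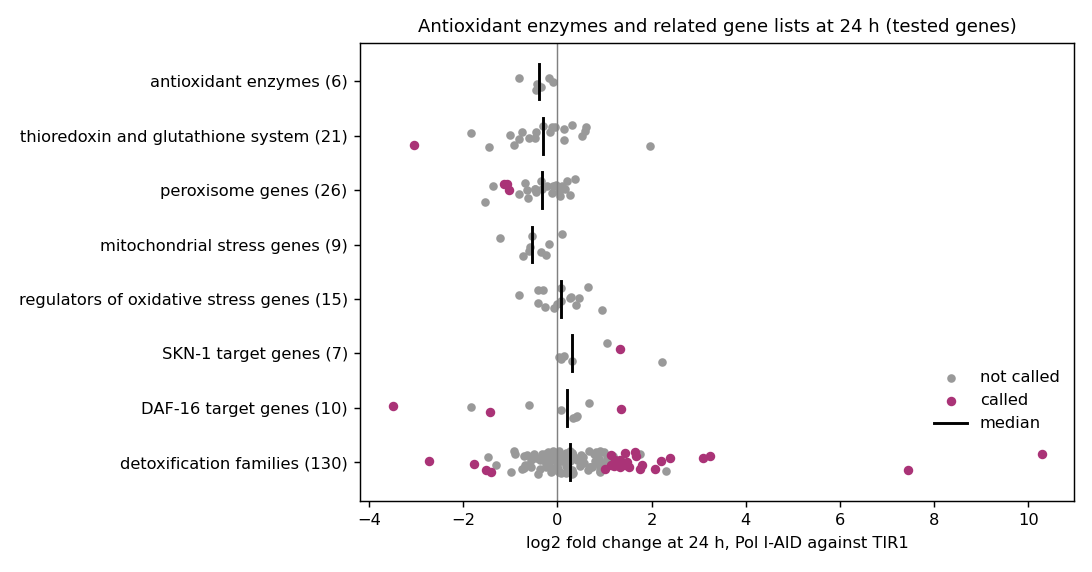
Log2 fold change of Pol I-AID against TIR1 at 24 h for tested genes of each list (number in brackets), with called genes in purple and the list median as a black line. The 6 antioxidant enzyme genes hold no called gene, with a median of -0.39, while the detoxification families hold 23 called higher, up to 10.29.

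Detoxification genes also rose with age and auxin in the TIR1 strain, where 50 of the 130 rose and 6 fell from 0 to 24 h (43.1%, against 9.71% of all genes). In Pol I-AID 64 rose and 5 fell (53.1%, against 17.4%). The change of the strain difference from 0 to 24 h was called upward for 15 and downward for 2 (13.1%, against 5.88%).

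The thioredoxin and glutathione system recharges peroxiredoxins and peroxidases. Of its 29 genes 21 were tested, and 1 was called at 24 h (4.76%, against 7.71% of all genes): the thioredoxin gene trx-3, an intestinal form, was at 0.289 ± 0.226 CPM in Pol I-AID, against 2.19 ± 0.227 CPM in TIR1 (log2 -3.03, FDR = 0.000381). idh-1, an isocitrate dehydrogenase gene that supplies NADPH and is named here after its values were seen, had a log2 fold change of -0.81 (FDR = 0.000269), short of 2-fold. The median of the 21 was -0.29.

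Peroxisomal genes share a compartment with ctl-2. All 26 were tested and 3 were called lower at 24 h and 0 higher (11.5%, against 7.71%), with a median of -0.33. These were prx-11, a peroxisome division gene (-1.14), acox-3, an acyl-CoA oxidase gene (-1.07), and maoc-1, a peroxisomal beta-oxidation gene that was at 67.0 ± 5.90 CPM in Pol I-AID, against 137 ± 14.1 CPM in TIR1 (-1.03, FDR = 2.64e-06). By FDR alone 7 were lower and 0 higher, where 13.8% of all tested genes passed FDR alone (445 of the 6903 were lower). Among the 7 were daf-22 (-0.64) and dhs-28 (-0.70), also of peroxisomal beta-oxidation and named after their values were seen. Without replicate 1 of TIR1 or of Pol I-AID at 24 h, 1 of the 26 was called.

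Genes that answer oxidative stress through known regulators gave mixed calls. Of 12 SKN-1 target genes, 7 of which also belong to the detoxification families, 7 were tested. At 24 h 1 was called higher in Pol I-AID (14.3%, against 7.71% of all genes). This was gst-10, at 118 ± 22.2 CPM in Pol I-AID, against 46.9 ± 10.5 CPM in TIR1 (log2 1.32, FDR = 0.00815). Its log2 fold change at 0 h was 0.51 (FDR = 0.71). Without replicate 1 of all groups 0 of the 7 were called, and DESeq2 called 2. gst-4, the usual reporter of SKN-1 activity, was at 160 ± 12.8 and 77.0 ± 7.90 CPM (1.06, FDR = 0.0711). gcs-1, which makes the rate-limiting enzyme of glutathione synthesis, had a log2 fold change of 0.15 (FDR = 0.694). From 0 to 24 h 4 of the 7 rose in TIR1 (57.1%, against 9.71%) and 5 in Pol I-AID (71.4%, against 17.4%), with medians of 2.22 and 2.23. The change of the strain difference over this time had a median of 0.81. It was called for 0 of the 7 (against 5.88% of all genes), and 0 had an unadjusted p under 0.05.

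Of 13 DAF-16 target genes 10 were tested and 3 were called at 24 h (30%, against 7.71% of all genes). The ferritin gene ftn-1 was higher in Pol I-AID (1.34) while dod-3 (-3.49) and the aquaglyceroporin gene aqp-1 (-1.42) were lower. Of 15 regulators of oxidative stress genes, 1 was called at 12 h, skn-1 itself (6.67% of the list, against 2.46% of all genes). It was higher in Pol I-AID (log2 1.01, FDR = 0.00926). At 24 h edgeR and DESeq2 called 0 of the 15 (against 7.71% of all genes in edgeR), and 6 had an unadjusted p under 0.05. skn-1 was then at 183 ± 13.4 CPM in Pol I-AID against 95.8 ± 22.4 CPM in TIR1 (log2 0.94, FDR = 0.00707), and nhr-49, a nuclear receptor gene of lipid metabolism, had a log2 fold change of -0.82 (FDR = 0.000374). The change of the strain difference from 0 to 24 h was called for 1 regulator, sek-1, a kinase gene of the p38 pathway (1.08, FDR = 0.0248, against 5.88% of all genes). The sek-1 strain difference at 24 h was 0.45 (FDR = 0.172), smaller than this change, so sek-1 was lower in Pol I-AID before auxin. Before auxin the highest strain difference of any regulator was 0.35. Over the 24 h the list's highest log2 fold change reached 2.42 for TIR1, which lacks the degron, and 3.01 for Pol I-AID. For skn-1 the change of the strain difference did not reach an unadjusted p under 0.05 in edgeR, so a larger rise of skn-1 with the degron was not shown. These 3 regulators were named after their values were seen, and 1 regulator was called without TIR1 replicate 1 at 24 h.

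Mitochondrial stress genes gave no call at 24 h in 9 tested of 10 by either tool (edgeR called 7.71% of all tested genes). An unadjusted p under 0.05 was reached by 4, all lower, the chaperonin gene hsp-60 at -0.73 (FDR = 0.00464) among them. At 0 h, before auxin, 4 also reached it, all lower, with a median log2 fold change of -0.46, against -0.53 at 24 h. The change of the strain difference from 0 to 24 h had a median of -0.13, with 0 at an unadjusted p under 0.05. Of 9 genes for oxidant producers 2 were tested. memo-1, a regulator of the NADPH oxidase BLI-3, was called lower in Pol I-AID at 24 h (-1.07), where 7.71% of all genes were called. This call was lost without TIR1 replicate 2 at 24 h. The log2 fold change of memo-1 at 0 h, before auxin, was already -0.64 (FDR = 0.383). The change of the strain difference from 0 to 24 h was called for neither gene (against 5.88% of all genes), and 0 had an unadjusted p under 0.05. Without TIR1 replicate 3 at 24 h 1 mitochondrial stress gene was called. These lists are described by counts and medians with no test of a list.

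The genes most like prdx-2 across the 24 libraries, by the mean absolute difference of centred log2(CPM + 1), were vrp-1 (0.110), lias-1 (0.153), a lipoic acid synthase gene, and rpl-1 (0.168), a ribosomal protein gene. Their log2 fold changes at 24 h were -0.71 (FDR = 0.0595), -0.29 and -0.56, and none passed the test.

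In the WBcel235 annotation ctl-2, ctl-1 and ctl-3 lie next to each other on chromosome II, and near-identical stretches of the 3 catalases can lose or trade uniquely aligned reads, so their shares are uncertain. Exons of sod-1, sod-2, sod-3, sod-4 and ctl-2 overlap a gene on the other strand by 21 to 175 bases, at most 65 for ctl-2 and sod-3. The library kit does not mark strand, so reads in those stretches cannot be assigned to one of the overlapping genes.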

How the data were processed

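Messenger RNA of dissected intestines was made into SMART-Seq libraries. The authors trimmed adaptors with Trimmomatic, aligned reads to ce10 with QuasR (spliced alignment), kept uniquely aligned reads, counted those in the orientation of each WS220 gene's exons, and deposited raw counts per gene for 24 libraries. Exon lengths are from the deposited table. Even values made up 70.1% to 82.4% of counts from 1 to 10, so counts are not single molecules.

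Tests were run on the counts with edgeR 4.0.16 in R 4.3.3 (limma 3.58.1): TMM factors, filterByExpr (6903 genes kept), 1 mean per group over all 24 libraries, common dispersion 0.111, 18 residual degrees of freedom and Benjamini-Hochberg adjustment over all tested genes. Levels are CPM on TMM-scaled library sizes. The SE of a log2 fold change was obtained by dividing it by the root of F, and the 95% intervals are approximate. Alternatives included DESeq2 1.42.0, other scalings and filters, a replicate block and single libraries left out. Symbols were found for 19182 identifiers (94.1%).

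The genes and lists were chosen with earlier results of these data known. All 10 genes are named. Of each other list, up to 3 called genes per direction with the largest change at 24 h are named, together with the 3 genes most like the gene of largest change. Sums of cell type markers are in ppm of counts outside the vitellogenins. Scripts were tested on simulated data with the same spread for every gene. There, in Pol I-AID against TIR1 at 24 h, 20 of 99 genes changed 2-fold and 91 of 97 changed 4-fold were called. A true 2-fold change can thus go without a call. Coordinates and sequences were not used here.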

Additional observations from a re-analysis of the deposited data

Results flagged for a closer look

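Among 48 groups of 4 libraries checked for a library far from the others, 2 held one, and chance alone flags about 1 group in 20. ctl-2 in Pol I-AID at 24 h had 1 library above the others, replicate 4 at 82.5 CPM, and the group lay below TIR1 with or without it. The total count of replicate 3 of TIR1 at 0 h was far below the other 3, at 3.18 M. ctl-2 also differed between strains in its change from 0 to 24 h, by -0.68 on the log2 scale, as tested by the interaction of strain and time. The cause of these was not tested.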

How the results depend on the processing

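No tested gene was called between strains in any alternative, except prdx-2 at 24 h without replicate 1, which makes the count 0 to 1 with a replicate or library left out. With FDR alone the count was 2 between strains at 24 h, 1 for the change of the strain difference from 0 to 24 h, 2 in TIR1 from 0 to 12 h and 1 in Pol I-AID from 0 to 24 h. The single call in TIR1 from 0 to 12 h became 0 with library totals, with at least 10 counts in every library and with the compared groups only. The single call in TIR1 from 0 to 24 h became 0 with library totals and with the length trend removed, and Pol I-AID from 0 to 24 h gained 1 with library totals. With libraries left out each of these counts, and that in Pol I-AID from 0 to 12 h, ran from 0 to 1. Shared replicate numbers gave correlations of deviations from -0.11 to 0.31 and do not pair the samples. With the replicate block ctl-2 at 24 h was at -0.43 (FDR = 0.0301), prdx-2 at -0.77 (FDR = 0.0436), and no count of calls among the 10 genes changed.

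Library totals in place of TMM moved the all-gene median from 0.04 to -0.18 between strains at 0 h, from -0.03 to -0.41 in TIR1 and from -0.07 to -0.32 in Pol I-AID from 0 to 24 h. With library totals, differences between strains at 0 h turned to -0.0011 (sod-2), -0.0554 (ctl-1) and -0.10 (prdx-2), and in TIR1 prdx-2 turned to -0.013 from 0 to 12 h and ctl-2 to -0.0906 and prdx-3 to -0.26 from 0 to 24 h. In Pol I-AID ctl-2 turned to 0.0475 (0.0435 with at least 10 counts in every library) from 0 to 12 h and ctl-1 to -0.20 from 0 to 24 h. With the length trend removed sod-1 turned to -0.0374 at 12 h and 0.20 at 24 h, and prdx-3 to 0.0803 for the change from 0 to 24 h and to -0.19 in TIR1 from 0 to 24 h. The cause was not tested.

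With a replicate or library left out, small differences changed sign. Between strains the ranges at 0 h were -0.046 to 0.57 (sod-1), -0.0155 to 0.34 (ctl-1) and -0.13 to 0.26 (prdx-2), at 12 h -0.47 to 0.52 (sod-1) and -0.40 to 0.15 (prdx-2), and at 24 h -0.26 to 0.0751 (sod-1) and -0.47 to 0.30 (sod-2). For the change of the strain difference they were -0.95 to 0.11 (sod-1), -0.62 to 0.0078 (prdx-2) and -0.45 to 0.11 (prdx-3) to 12 h, and -0.82 to 0.0338 (sod-2) and -0.44 to 0.0054 (prdx-3) to 24 h. In TIR1 they were -0.0794 to 0.69 (sod-2), -0.12 to 0.35 (prdx-2) and -0.0222 to 0.41 (prdx-3) to 12 h, and -0.0299 to 0.40 (prdx-3) to 24 h. In Pol I-AID they were -0.0719 to 0.0615 (ctl-2), -0.51 to 0.0577 (prdx-2) and -0.35 to 0.14 (prdx-3) to 12 h, and -0.14 to 0.20 (ctl-1) and -0.25 to 0.13 (prdx-3) to 24 h.

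Under the settings that kept all libraries the detoxification families gave 13 (at least 10 counts in every library) to 38 calls (FDR alone), SKN-1 targets 1 to 3 and peroxisome genes 2 to 7. The shallow TIR1 libraries hold few counts of sod-2 and ctl-1, as low as 4. Between strains at 24 h the SE was largest for sod-2 (0.36) and sod-1 (0.35), against 0.27 for ctl-1.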
